A study of Mus musculus with 6 samples.

Results

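Cholesterol and lipid synthesis genes were examined in splenic T cells of DUSP4-/- and WT mice. The 33 genes were taken by name from the SREBP and LXR pathways: 7 of the mevalonate steps, 11 of the steps from squalene to cholesterol, 6 of SREBP control and sterol carriage, 6 of fatty acid synthesis and 3 of LXR and cholesterol efflux. Of these, 29 were measured by a probe set naming that gene alone, out of 22180 genes tested. Idi1 and Scd2 shared a probe set with other genes, and Acat2 and Nr1h2 were not analysed here. The DUSP4-/- mice carried a knockout of DUSP4, a dual-specificity phosphatase that acts on MAP kinases, and the WT mice did not. There were 3 arrays of DUSP4-/- T cells and 3 of WT T cells. All mice were 6 to 8 weeks old and had a C57Bl/6 background after repeated back-crossing. T cells were sorted from spleen with magnetic beads to a stated purity of 90 to 95%, RNA was taken at once, and no culture or treatment was applied.

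Cells make cholesterol from acetyl-CoA through mevalonate and squalene, and the enzymes of this chain are transcribed under SREBP2, a membrane-bound transcription factor. When sterols are low, SCAP escorts SREBP to the Golgi for release. When sterols are high, INSIG1 and INSIG2 hold the SCAP and SREBP complex in the endoplasmic reticulum. SREBP1 mainly drives fatty acid synthesis, and LXR, activated by oxysterols, raises the exporters ABCA1 and ABCG1. Resting T cells need little new lipid, and the pathway is known to be turned up when T cells are activated and divide.

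The promoters of 4 genes are shown. Levels of Insig1 and Cyp51 in one direction and of Dhcr7 in the other stood apart between replicate numbers, as described further on. Hmgcs1 stood with Insig1 without passing the test, and less far apart than Insig2, Ebp, Scap and Elovl6, whose promoters are not shown. It was the only member found to hold the sterol element core marked below. Each promoter is the 250 bases before a RefSeq transcription start in build GRCm38.p6, 5′ to 3′ on the gene's own strand. Capitals mark CCAAT or its reverse complement ATTGG, the letters bound by NF-Y, which works together with SREBP at sterol genes, and any match to TCACNCCAC, the core of a sterol regulatory element. They lie at chr13:119690101-119690350 (plus strand, Hmgcs1), chr5:28071162-28071411 (plus strand, Insig1), chr5:4104698-4104947 (minus strand, Cyp51) and chr7:143829964-143830213 (plus strand, Dhcr7). Dhcr7 had 3 promoters in the table, and the one that held CCAAT is given.
Hmgcs1: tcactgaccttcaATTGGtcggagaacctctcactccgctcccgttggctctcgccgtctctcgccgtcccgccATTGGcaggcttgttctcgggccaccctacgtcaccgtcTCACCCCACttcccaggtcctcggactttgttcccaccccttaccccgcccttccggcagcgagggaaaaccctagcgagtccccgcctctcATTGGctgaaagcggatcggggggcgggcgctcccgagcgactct
Insig1: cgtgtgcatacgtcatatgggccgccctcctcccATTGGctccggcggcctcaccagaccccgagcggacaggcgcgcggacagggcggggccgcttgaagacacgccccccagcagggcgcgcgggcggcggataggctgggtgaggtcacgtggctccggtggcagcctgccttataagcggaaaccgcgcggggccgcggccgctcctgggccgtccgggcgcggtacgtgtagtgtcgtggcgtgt
Cyp51: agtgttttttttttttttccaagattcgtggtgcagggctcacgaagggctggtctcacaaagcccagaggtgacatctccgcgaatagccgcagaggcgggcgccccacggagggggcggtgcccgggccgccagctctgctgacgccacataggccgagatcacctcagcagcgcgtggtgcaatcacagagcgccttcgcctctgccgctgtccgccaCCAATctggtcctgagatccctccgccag
Dhcr7: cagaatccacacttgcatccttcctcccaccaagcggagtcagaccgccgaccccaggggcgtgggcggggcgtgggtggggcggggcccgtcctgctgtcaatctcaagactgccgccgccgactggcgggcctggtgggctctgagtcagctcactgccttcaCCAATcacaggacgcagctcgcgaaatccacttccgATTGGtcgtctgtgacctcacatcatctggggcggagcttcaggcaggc

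Promoter sequences were found for 26 of the 33 genes, 34 promoters in all. Both strands were searched, and a gene was counted when any of its promoters held the letters. CCAAT was present in 14 of 15 sterol synthesis genes (93.3%), against 37.5% of the 27025 genes in the table and 39.7% of tested genes brighter than the median probe set. It was present in 4 of 5 genes of SREBP control, 1 of 4 of fatty acid synthesis and 0 of 2 of efflux. The GC box letters GGGCGG, which can share their first letters with the end of ATTGG, were in 14 of 15 sterol synthesis genes (93.3%), against 35.4% of all genes and 62.6% of the brighter ones. TCACNCCAC was found in 1 of 15 sterol synthesis genes, against 1.22% of all genes: Hmgcs1 held TCACCCCAC, 129 to 137 bases before its start. The shorter CACNCCAC, contained in the longer core, was in 2 of 15, against 6.05% of all genes. These are matches of letters within 250 bases, and binding was not measured.

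Each array gives 1 value per probe set on the log2 scale, so a difference of 1 is a 2-fold change, and values of different genes are not compared because probe sets differ in brightness. Array medians were 4.99 to 5.07. Dusp4 read 5.10, 6.18 and 6.78 in DUSP4-/- T cells, against 6.33, 7.61 and 8.13 in WT T cells. It was lower in the DUSP4-/- sample of each replicate number, with differences of -1.23, -1.44 and -1.35, but the ranges overlapped and limma gave an adjusted p of 1.00 (0.182 with the replicate number as a block). Whether its probe set lies in the deleted part is not given in the sources used here. Cd3e read 11.49 to 11.78 and Cd4 10.82 to 11.10. Cd8a read 10.32 to 10.79, although the methods describe a sort that removes CD8+ cells. The median of 9 T cell markers per array was 10.37 to 10.76 in DUSP4-/- samples and 10.40 to 10.79 in WT samples, and that of 11 B cell markers 5.49 to 6.70 and 5.34 to 6.61. Samples with the same replicate number deviated together and are called pairs 1, 2 and 3. Pair 1 also stood apart in Xist, the RNA of the inactive X chromosome, which read 10.12 in the DUSP4-/- and 10.09 in the WT sample, and 3.58 to 3.87 in the other 4 samples. The labels do not give the sex of the mice or say what a replicate number shares.

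**Figure D1:**
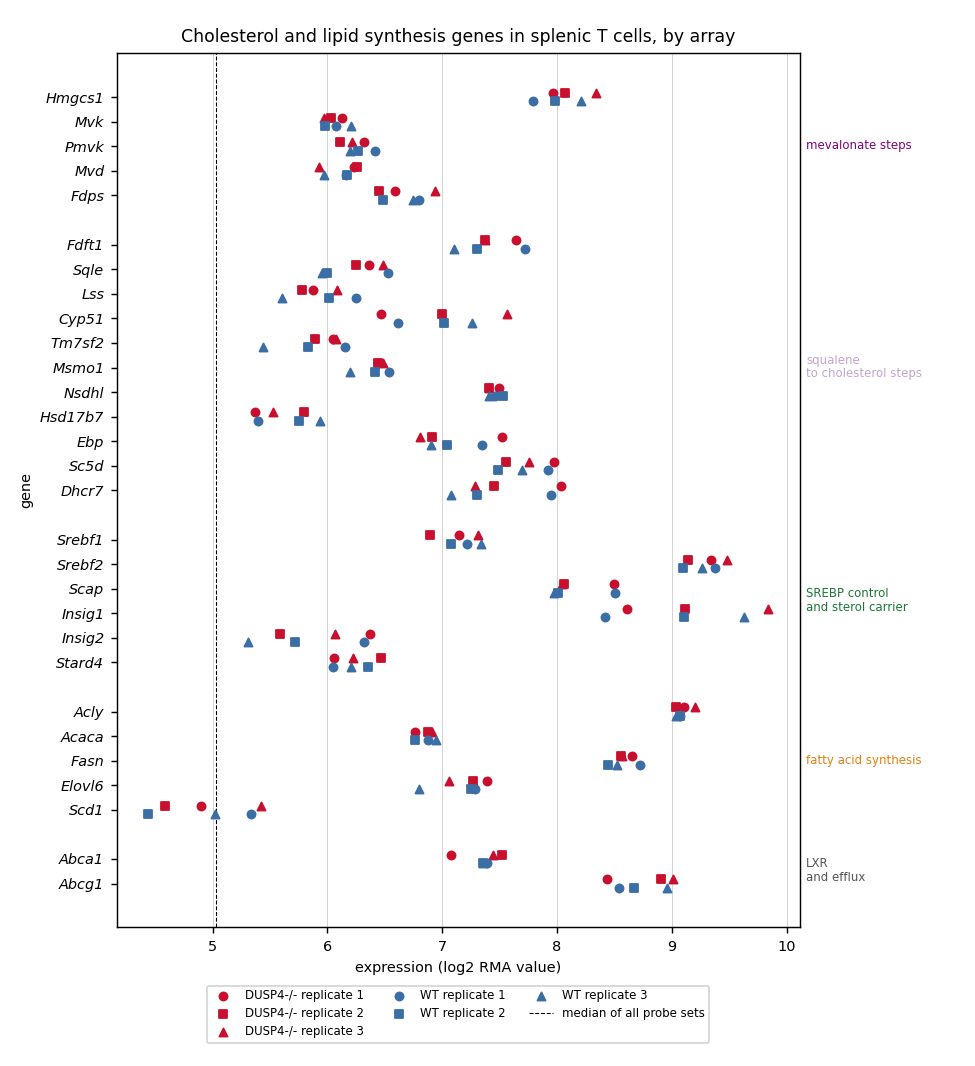
Expression of the 29 measured genes, by array. The x axis is the log2 RMA value, each point is 1 array (red DUSP4-/-, blue WT, symbol by replicate number), genes are grouped by pathway step, and the dashed line is the median of all probe sets, 5.03. The DUSP4-/- and WT points of every gene overlap, and only the mean of Scd1 lies left of the line.

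All but 1 of the measured genes were brighter than the median of all probe sets, 5.03, as were 11425 of the 22180 genes tested. The exception was Scd1, with a mean of 4.95, within the range of genes that belong to other tissues (means of 1.71 to 5.40). Between DUSP4-/- and WT T cells, 0 of the 29 genes passed limma's test at an adjusted p of 0.05, and 0 of all 22180 genes did. At an unadjusted p of 0.05 the count was again 0 of 29, against 2.70% of all genes (6.19% with the replicate block, where it was also 0 of 29). A one-way ANOVA and limma with an intensity trend and robust settings also gave 0 of 29 at that unadjusted level. For 0 of 29 genes did the 3 DUSP4-/- arrays lie apart from the 3 WT arrays, against 7.44% of all genes.

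In the mevalonate steps, Hmgcs1, which condenses acetoacetyl-CoA with acetyl-CoA to HMG-CoA, read 7.97, 8.07 and 8.34 in DUSP4-/- samples, against 7.79, 7.98 and 8.21 in WT samples. Its difference was positive in each pair (0.18, 0.09 and 0.13), with a mean of 0.13 and a 95% interval of -0.10 to 0.36 with the replicate block. The spread of 0.20 between samples of a genotype was thus larger than the difference, while the SD of the 3 pair differences was 0.05. Mvk, mevalonate kinase, read 5.97 to 6.13 in DUSP4-/- samples and 5.98 to 6.20 in WT samples, a difference of -0.04. Pmvk, which adds the second phosphate, differed by -0.08, with 6.11 to 6.32 in DUSP4-/- samples and 6.20 to 6.41 in WT samples. Mvd, which decarboxylates the product to isopentenyl diphosphate, differed by 0.04, with 5.93 to 6.26 in DUSP4-/- samples and 5.97 to 6.17 in WT samples. These 3 enzymes were among the steadier of the pathway, with SDs over the 6 arrays of 0.09, 0.10 and 0.14. Fdps, which joins the isoprene units to farnesyl diphosphate, differed by -0.02, and its pair differences had both signs (-0.21, -0.03 and 0.19).

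Among the steps from squalene to cholesterol, Sqle, the squalene epoxidase, read 6.37, 6.25 and 6.48 in DUSP4-/- samples, against 6.53, 6.00 and 5.95 in WT samples. Its mean difference of 0.21 was the largest of the 16 sterol synthesis genes, but pair 1 had the opposite sign (-0.16, 0.25 and 0.53). The interval with the block ran from -0.17 to 0.58. Tm7sf2, a sterol C14 reductase, read 6.05, 5.89 and 6.07 in DUSP4-/- samples, against 6.15, 5.83 and 5.44 in WT samples. Its difference of 0.20 rested on pair 3, at 0.63, since the other pairs gave -0.10 and 0.06. Lss, which folds squalene epoxide into lanosterol, differed by -0.04 with pair differences of -0.37, -0.24 and 0.48. In all of these, WT replicate 3 was the lowest of the 6 arrays.

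The remaining enzymes differed less or varied more between samples of a genotype than between genotypes. Fdft1, the squalene synthase, differed by 0.09, with 7.37 to 7.64 in DUSP4-/- samples and 7.10 to 7.72 in WT samples. Cyp51, the lanosterol demethylase, read 6.47, 7.00 and 7.56 in DUSP4-/- samples, against 6.61, 7.02 and 7.26 in WT samples, so its span of over 1 log2 unit in DUSP4-/- samples stood against a genotype difference of 0.05. Msmo1, a C4 methyl oxidase, read 6.44 to 6.48 in DUSP4-/- samples and 6.19 to 6.54 in WT samples. Nsdhl, its partner dehydrogenase, encoded on the X chromosome, had the smallest spread of all members, 7.41 to 7.49 in DUSP4-/- samples and 7.41 to 7.53 in WT samples. Hsd17b7, which reduces the C3 ketone, had the lowest mean difference of the members, -0.13, made up of -0.02, 0.04 and -0.41 in the 3 pairs. Ebp, the sterol isomerase, also X-linked, read 7.52, 6.91 and 6.81 in DUSP4-/- samples, against 7.35, 7.04 and 6.90 in WT samples. Replicate 1 was thus the highest in both genotypes, and the genotype difference was -0.02.

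Sc5d, the lathosterol desaturase, was the gene whose genotype difference was most alike between pairs: 0.05, 0.07 and 0.07, an SD of 0.0085, while samples of a genotype had an SD of 0.21. It read 7.97, 7.55 and 7.76 in DUSP4-/- samples, against 7.92, 7.48 and 7.69 in WT samples. Dhcr7, which completes cholesterol from 7-dehydrocholesterol, read 8.04, 7.45 and 7.29 in DUSP4-/- samples, against 7.94, 7.31 and 7.07 in WT samples. It was higher in each pair (0.09, 0.14 and 0.22), with a mean difference of 0.15 and an interval of -0.08 to 0.38 with the block. Its adjusted p by limma with the block, 0.825, was the lowest of the members.

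Of the genes of SREBP control, Srebf2, which encodes SREBP2, read 9.34, 9.14 and 9.48 in DUSP4-/- samples, against 9.38, 9.10 and 9.26 in WT samples, a difference of 0.07. Srebf1, which encodes SREBP1, read 7.15, 6.90 and 7.31 in DUSP4-/- samples, against 7.22, 7.07 and 7.34 in WT samples. It was the only member lower in all 3 pairs (-0.07, -0.18 and -0.03), with a mean of -0.09. Scap differed by 0.04, with 8.49, 8.06 and 8.04 in DUSP4-/- samples, against 8.51, 8.01 and 7.97 in WT samples. A second, dimmer Scap probe set, with a mean of 4.96, differed by 0.15. Insig1 read 8.61, 9.12 and 9.84 in DUSP4-/- samples, against 8.42, 9.10 and 9.63 in WT samples, the widest spread of all members. Within a genotype its SD was 0.61, while the pair differences were 0.19, 0.01 and 0.21. Insig2, its homolog, read 6.37, 5.59 and 6.06 in DUSP4-/- samples, against 6.32, 5.72 and 5.30 in WT samples. Its difference of 0.23 was the largest of all members and came from pair 3, at 0.76, against 0.05 and -0.13 in the others. Stard4, which carries cholesterol between membranes, read 6.06 to 6.46 in DUSP4-/- samples and 6.05 to 6.36 in WT samples, a difference of 0.05.

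In fatty acid synthesis, Acly, which makes cytosolic acetyl-CoA from citrate, read 9.11, 9.04 and 9.20 in DUSP4-/- samples, against 9.07, 9.07 and 9.04 in WT samples. Acaca, the carboxylase that makes malonyl-CoA, differed by -0.01, with 6.76 to 6.91 in DUSP4-/- samples and 6.76 to 6.95 in WT samples. Fasn, the fatty acid synthase, differed by 0.03, with 8.56 to 8.65 in DUSP4-/- samples and 8.44 to 8.72 in WT samples. These 3 core enzymes varied little over the 6 arrays, with SDs of 0.06, 0.08 and 0.10. Elovl6, which lengthens palmitate, read 7.39, 7.27 and 7.06 in DUSP4-/- samples, against 7.28, 7.25 and 6.80 in WT samples, and was higher in each pair (0.11, 0.02 and 0.26). Scd1, the stearoyl-CoA desaturase, read 4.90, 4.58 and 5.43 in DUSP4-/- samples, against 5.34, 4.44 and 5.02 in WT samples. Its pair differences ran from -0.44 to 0.41, at a level within the range of the genes of other tissues.

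Of the LXR targets that export cholesterol, Abca1, which loads lipid onto apolipoprotein A-I, read 7.08, 7.52 and 7.44 in DUSP4-/- samples, against 7.39, 7.35 and 7.36 in WT samples. Abcg1, which exports cholesterol to HDL, read 8.43, 8.90 and 9.01 in DUSP4-/- samples, against 8.54, 8.67 and 8.96 in WT samples. Their mean differences were -0.02 and 0.06. Both were lower in the DUSP4-/- sample of pair 1 and higher in those of pairs 2 and 3.

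**Figure D2:**
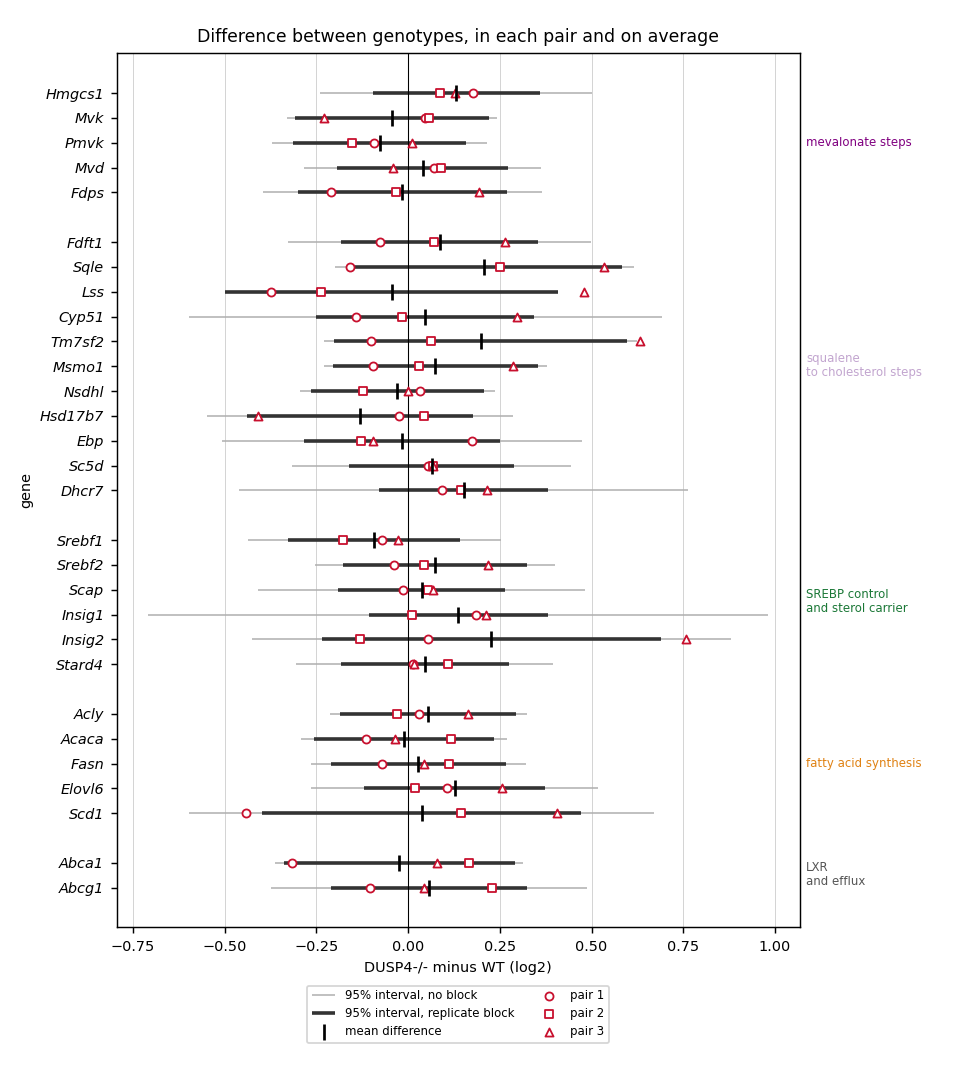
Difference between genotypes for each of the 29 genes. The x axis is DUSP4-/- minus WT on the log2 scale, open symbols are the 3 pairs, black ticks the mean, thick and thin lines the 95% intervals of limma with and without the replicate block. Every interval crosses 0, and the means lie between -0.13 and 0.23.

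Taken by pathway step, the DUSP4-/- minus WT differences were close to 0 in each. The median was 0.04 over the 16 sterol synthesis genes (9 above 0 and 7 below), 0.04 over the 5 genes of fatty acid synthesis, 0.06 over the 6 of SREBP control and 0.02 over the 2 exporters. Over all 22180 genes it was 0.02. No test was made between these groups. Pair by pair, the sterol synthesis median was -0.05, 0.05 and 0.16, that of fatty acid synthesis -0.07, 0.11 and 0.16, and that of the exporters -0.21, 0.20 and 0.06, so these 3 groups had both signs. That of SREBP control was 0.00048, 0.03 and 0.14, with 3 of its 6 genes above WT in pair 1. Over genes brighter than the median probe set the medians were -0.035, 0.01 and 0.04. Of the 29 genes, 12, 20 and 23 were above WT in pairs 1, 2 and 3 (41.4, 69.0 and 79.3%), against 42.2, 54.3 and 59.0% of the 11425 genes brighter than the median probe set. Macrophage and monocyte markers also moved by pair, in the opposite order. Their median level per array was 5.42 to 6.30 in DUSP4-/- samples and 5.45 to 6.54 in WT samples. Of the 18, 14 had a mean below WT, against 9790 of all 22180 genes. Their median difference was 0.32 in pair 1, -0.14 in pair 2 and -0.77 in pair 3. That of 8 dendritic cell markers was -0.12, -0.14 and -0.14, with 6 means below WT and 2 above. The part of these markers in the pathway values was not tested. Fewer cells of a type and less RNA per cell cannot be told apart in bulk samples.

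The intervals bound the difference of each gene taken singly, on the scale of the array values. Without the block they covered folds from 0.612 to 1.98 over the 29 genes, so a 2-fold change in either direction lay outside the 95% interval of each gene. With the block they covered 0.708 to 1.61, and 27 of 29 lay within 1.5-fold of no change. These are the outermost bounds over the genes, and the median half-width of the interval with the block was 0.25 on the log2 scale. The sign was the same in all 3 pairs for 7 of 29 genes, against 27.6% of all genes. Of these, 6 were higher (Hmgcs1, Sc5d, Dhcr7, Insig1, Stard4 and Elovl6), against 16.6% of all genes, and 1 was lower (Srebf1), against 11.1%.

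Values of the pathway varied between samples of a genotype by more than the genotype means differed, though a mean of 3 arrays always varies less than single arrays. The size of the genotype difference, whatever its sign, had a median of 0.06 over the 29 genes and 0.07 over genes brighter than the median probe set, so this was not particular to the pathway. The SD within a genotype had a median of 0.22 over the 29 genes and 0.18 over the brighter genes, and the SD of the 3 pair differences 0.13 and 0.14. By step, the range of the 3 pair means had a median of 0.36 over sterol synthesis, 0.43 over SREBP control, 0.35 over the exporters and 0.185 over fatty acid synthesis, against 0.295 over the brighter genes. In 14 of 29 genes the 3 replicate numbers stood in the same order in both genotypes, against 32.0% of all genes and 43.6% of the brighter ones.

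**Figure D3:**
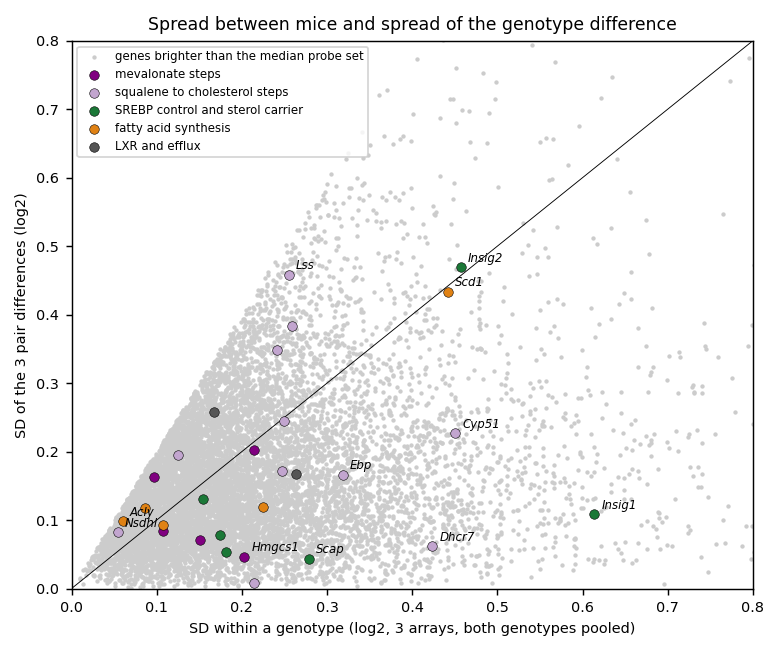
Spread between samples of a genotype against spread of the genotype difference. The x axis is the SD within a genotype and the y axis the SD of the 3 pair differences, both log2. Each coloured point is 1 of the 29 genes, grey points are the 11425 genes brighter than the median probe set (122 lie beyond the axes), and the line marks equal values. Insig1, Dhcr7 and Cyp51 lie far below the line, whereas Lss lies above it.

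A test between the 3 pairs, with genotype as a covariate, was added after these values were seen, so it describes a pattern already noticed. By limma's F test 2 of 29 genes passed an adjusted p of 0.05, against 2.45% of all genes and 4.31% of the brighter ones. They were Insig1 (adjusted p = 0.0325) and Dhcr7 (adjusted p = 0.0498). At an unadjusted p of 0.05, 12 of 29 passed, against 22.4% of all genes and 31.6% of the brighter ones. Neither call held when any 1 of the 6 samples was left out, with adjusted p of 0.0559 to 0.192 for Insig1 and 0.105 to 0.228 for Dhcr7, and every such fit rests on 5 arrays.

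The members did not move one way between pairs. Between pairs 1 and 3, limma called 3 of 29 genes, against 6.67% of all genes and 11.3% of the brighter ones, a share close to that of the members. Insig1 was lower in pair 1 by 1.22 (adjusted p = 0.0140) and Cyp51 by 0.87 (adjusted p = 0.0331), whereas Dhcr7 was higher in pair 1 by 0.81 (adjusted p = 0.0238). Among those that did not pass, Abcg1 and Hmgcs1 stood with Insig1, at -0.50 and -0.40 for pair 1 minus pair 3. Insig2, Ebp, Scap, Fdft1 and Elovl6 stood with Dhcr7, at 0.66, 0.58, 0.49, 0.44 and 0.41. Enzymes of the same chain thus stood on both sides. B cell markers moved with the pairs too. The B cell marker median was 6.70 in DUSP4-/- and 6.61 in WT samples of pair 1, against 5.49 and 5.73 in DUSP4-/- and 5.34 and 5.85 in WT samples of the other pairs, and 3 of 11 B cell markers passed the F test. The cell cycle gene median over 19 genes was 7.24 in DUSP4-/- and 6.79 in WT samples of pair 1. In the others it was 6.23 to 6.86 and 6.42 to 6.47, and 0 of 19 passed the F test. Of these 19 genes, 15 had a mean above WT, against 52.2% of the brighter genes. Their median DUSP4-/- minus WT difference was 0.21, 0.29 and -0.08 in pairs 1, 2 and 3, and 0 passed limma's test between genotypes. The part of the B cell markers, the cell cycle genes and what Xist reads in the pair differences was not tested.

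**Figure D4:**
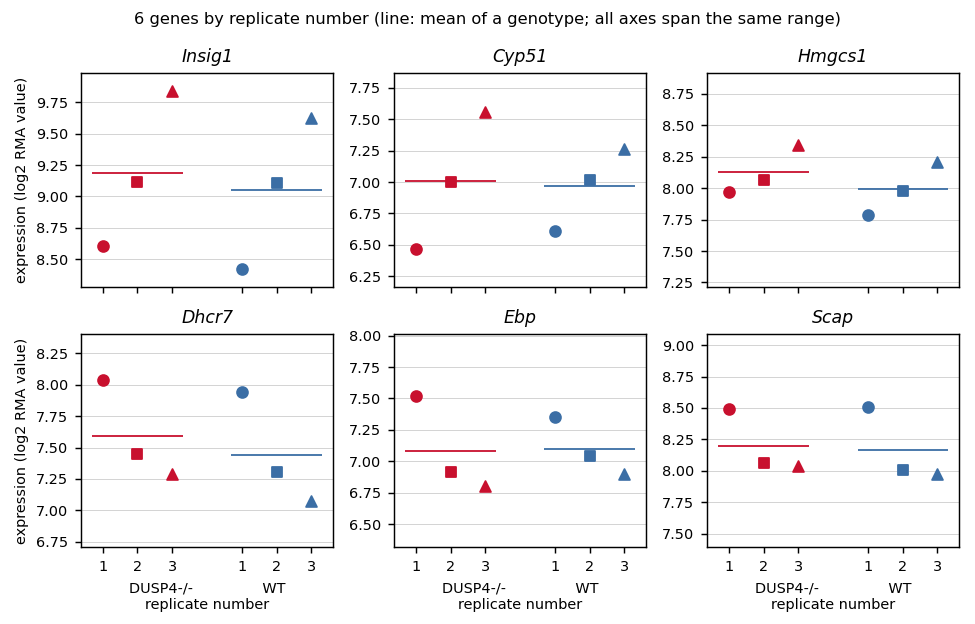
Values of 6 genes by replicate number, DUSP4-/- at the left and WT at the right of each panel. The y axes are log2 RMA values and span the same range, each symbol is 1 array and each line the mean of a genotype. Insig1, Cyp51 and Hmgcs1 are lowest in pair 1 and highest in pair 3 of both genotypes, and Dhcr7, Ebp and Scap are highest in pair 1.

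Other genes of the same pathways were compared between DUSP4-/- and WT T cells in the same fit. Of 15 further sterol genes (of 21 listed), 0 passed limma's test, with a median difference of -0.01. Those with the largest differences among the brighter ones were Gramd1a (-0.19), Gramd1b (-0.12), Idi2 (0.145) and Mbtps2 (0.12). Gramd1a and Gramd1b carry cholesterol from the plasma membrane, Idi2 is an isopentenyl diphosphate isomerase, and the protease Mbtps2 makes the final cut in SREBP. Idi2 had a mean of 5.19, within the range of the genes of other tissues. Its difference came from pair 3, at 0.61, against -0.19 and 0.02 in pairs 1 and 2. Of 23 further fatty acid genes (of 25 listed) 0 passed, with a median of 0.02, and the largest among the brighter ones were Mcat (-0.16), of mitochondrial fatty acid synthesis, Acsl4 (0.15), an acyl-CoA synthetase, Cpt1a (-0.12), which brings acyl chains into mitochondria, and Elovl5 (0.10), an elongase. Of 16 further LXR genes (of 19 listed) 0 passed, with a median of -0.05. The largest among the brighter ones were Rxra (-0.25) and Rxrb (-0.15), the partners of LXR, Abca7 (-0.16), a lipid transporter, and Apoe (-0.12), the apolipoprotein that LXR induces in macrophages. At an unadjusted p of 0.05, 0 genes of these 3 lists passed without the block, by ANOVA or with trend and robust moderation, and with the block 2 did, Fads2 and Elovl3, both of fatty acid metabolism and dimmer than the median probe set.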

How the data were processed

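Expression was measured in 6 samples, 3 DUSP4-/- and 3 WT, on Affymetrix Mouse Gene 2.0 ST arrays. The authors deposited log2 RMA values made with Affymetrix Expression Console (versions not given in the sources used here). RMA removes background, gives all arrays the same distribution and condenses probes to 1 value per probe set, so shifts of whole arrays are lost. Of 41345 probe sets, 23521 name 1 gene, 1820 name several and 16004 name none in the platform annotation. Only the first kind was tested, and the brightest by mean over the 6 arrays stood for a gene (22180 genes). Differences, DUSP4-/- minus WT, were estimated in R 4.3.3 with limma 3.58.1 (moderated linear model, no block), with Benjamini-Hochberg adjustment over the 23521 probe sets and a threshold of 0.05. The legend of the authors' array comparison names an ANOVA, which was run as an alternative. The procedure was run on simulated data, where planted differences had to be returned on average. How often differences as small as those of the members would be called was not judged from it.

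Replicate numbers were checked for pairing. Deviations from the genotype means correlated over genes at 0.578, 0.308 and 0.425 for equal numbers and at -0.436 to 0.103 for unequal ones, and the legend speaks of pairs, so the number was also fitted as a block. P-values set a difference against the spread that the fitted model leaves over in these samples, and 3 arrays per genotype limit precision. The members and lists were chosen with earlier results of these data known. All members are named, and of each further pathway list the 4 brighter genes with the largest differences. Promoters came from RefSeq, GRCm38.p6. Alternatives covered the block, normalization, dim probe sets, choice of probe set, moderation, threshold and left-out samples.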

Additional observations from a re-analysis of the deposited data

How the results depend on the processing

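Between DUSP4-/- and WT T cells, 0 of the 29 genes passed under every alternative run, with the replicate block (lowest adjusted p 0.825 by limma), ANOVA, trend and robust moderation, both renormalizations, dim probe sets left out, the mean over probe sets, a threshold of 0.1 and each left-out sample or pair. Over all genes the count was 0, except 1 gene without WT replicate 1 and 1 without replicate 1 of both genotypes (range 0 to 1). Of 463 alternative values of single genes, 67 changed sign, 64 of them with samples left out (44 with a single sample and 20 with a pair), and 4 genes never did. Quantile normalization applied again turned Fdps to 0.0093, Ebp to 0.0148 and Acaca to 0.0172.

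With samples left out, the median difference ranged from -0.0158 to 0.0945 for sterol synthesis, -0.0317 to 0.107 for fatty acid synthesis, -0.0741 to 0.170 for the exporters and 0.0120 to 0.134 for SREBP control. With samples or pairs left out, the difference of 25 genes took both signs. Of these, 16 did so with a whole pair left out and 9 only with single samples left out, which breaks up the pairs. The 7 genes with 1 sign in all 3 pairs kept it with any pair left out, as their construction requires. In the mevalonate steps it ranged from -0.10 to 0.051 for Mvk, -0.024 to 0.14 for Mvd and -0.15 to 0.090 for Fdps. In the squalene to cholesterol steps it ranged from -0.049 to 0.26 for Fdft1, -0.31 to 0.12 for Lss, -0.23 to 0.32 for Cyp51, -0.018 to 0.37 for Tm7sf2, -0.032 to 0.16 for Msmo1, -0.060 to 0.018 for Nsdhl, -0.28 to 0.009 for Hsd17b7, -0.24 to 0.12 for Ebp, -0.043 to 0.18 for Sc5d and -0.071 to 0.40 for Dhcr7. In SREBP control and sterol carrier it ranged from -0.19 to 0.019 for Srebf1, -0.0038 to 0.16 for Srebf2, -0.11 to 0.21 for Scap, -0.19 to 0.43 for Insig1, -0.039 to 0.50 for Insig2 and -0.062 to 0.14 for Stard4. In fatty acid synthesis it ranged from -0.075 to 0.040 for Acaca, -0.032 to 0.11 for Fasn, -0.028 to 0.22 for Elovl6 and -0.21 to 0.28 for Scd1. Among the exporters it ranged from -0.12 to 0.12 for Abca1 and -0.056 to 0.23 for Abcg1.

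The comparison between pairs depended on the settings, all chosen after seeing the data. Against 2 of 29 genes and 543 of all genes, dim probe sets left out gave 8 and 2965, trend and robust moderation 12 and 3922, the mean over probe sets 1 of 29, and a threshold of 0.1 gave 1833 of all genes. Leaving out any 1 sample gave 0 of 29, and 4 to 102 of all genes. The number of arrays limits these counts, and the cause of the other shifts was not tested.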

Other observations

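A pair of genes of the further fatty acid list stood outside the naming rule because they were dimmer than the median probe set, and they were picked after their values were seen. Fads2, the delta-6 desaturase of polyunsaturated fatty acids, read 5.73, 4.88 and 4.97 in DUSP4-/- T cells, against 5.17, 4.32 and 4.14 in WT T cells. It was higher in all 3 pairs, by 0.56, 0.56 and 0.83, but the ranges of the genotypes overlapped. By limma with the replicate block its unadjusted p was 0.0011 and its adjusted p 0.762, and without the block its adjusted p was 1.00. Elovl3, an elongase of long saturated chains, was higher by 0.30, 0.15 and 0.53 in the 3 pairs, with an unadjusted p of 0.0291 and an adjusted p of 0.762 by limma with the block.

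Between pairs, limma's F test called 0 of 15 further sterol genes, 2 of 23 further fatty acid genes and 1 of 16 further LXR genes, against 2.45% of all genes. They were Fads2 (adjusted p = 0.0460), Cpt1a, which admits acyl chains to mitochondria (adjusted p = 0.0431), and Lpcat3, an LXR target that edits membrane phospholipids (adjusted p = 0.0484). All 3 were higher in pair 1 than in pair 3, by 0.90, 0.95 and 0.90 on the log2 scale. Between pairs 1 and 3 alone, limma also called the elongase Elovl7 and the desaturase Fads1, higher in pair 1 by 1.03 (adjusted p = 0.0250) and 0.61 (adjusted p = 0.0455). It called Lpin1, a phosphatidate phosphatase, on the other side, at -0.71 for pair 1 minus pair 3 (adjusted p = 0.0361). In that comparison 1 of 15 further sterol genes, 4 of 23 further fatty acid genes and 1 of 16 further LXR genes were called. The share called was 6.67% of all genes and 11.3% of those brighter than the median probe set.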
